A study of Mus musculus with 6 samples.

Results

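Circadian clock genes encode a transcription loop that cycles about once a day in most cells, fibroblast-like lines included. CLOCK pairs with BMAL1 and switches on genes with an E-box in their promoters, among them the Period (Per) and Cryptochrome (Cry) genes, whose proteins then repress CLOCK and BMAL1. The loop drives output regulators that act on D-box elements, where DBP and TEF activate and NFIL3 represses, and the E-box repressor BHLHE40 (also called DEC1) feeds back on it. In cultured fibroblasts serum, cAMP and glucocorticoid signals can reset the loop.

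The members were the 10 genes Clock, Per1, Per2, Per3, Cry1, Cry2, Dbp, Tef, Bhlhe40 and Nfil3, 10 of 18193 genes with a named probe set, and were taken as all 23 probe sets that the platform annotation assigns to 1 of these symbols, of 45101 on the array. A probe set is a group of short probes that report 1 transcript, and its signal has arbitrary units. RNA came from C3H10T1/2, an established mouse mesenchymal line, given as 1 line with no genetic change named. One group of 3 samples received 50 ng/ml BMP4, a bone morphogenetic protein ligand, while proliferating, the other group of 3 received none, and both were harvested after confluence. The study asked which genes BMP4 regulates as these cells commit to the adipocyte lineage. Neither the time of harvest within the day nor the interval since the last medium change is given in the sources used here. The samples form no time series, so a shift in the phase of a rhythm and a change of its mean level cannot be told apart. Fewer cells expressing a gene and less of its RNA per cell cannot be told apart either.

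The deposited signals had a 2% trimmed mean of 150 on every array, and median signals were 35.2 to 37.3 without and 37.6 to 42.6 with BMP4. Control probe sets for bacterial transcripts, 27 in all, reached at most 17.1, 16.6 and 21.0 on the control arrays. On the BMP4 arrays they reached 23.5, 29.1 and 24.1. Background was taken as 29.1, the highest of these signals. All 9 markers of mesenchymal cells lay above it on all 6 arrays, with Twist1 lower with BMP4 (log2 change -0.48, limma adjusted p = 0.044). That call was lost without BMP4 replicate 1 (0.0752) or 3 (0.0593) and without control replicate 1 (0.155), 2 (0.122) or 3 (0.0569). It held under only 7 of the 17 alternatives. Summed mesenchymal marker signals were 39992 to 49456 without and 44736 to 52857 with BMP4. Of 4 measured markers each of macrophages, endothelium and epithelium, 0, 1 (the receptor Tek, log2 change -0.69) and 0 passed the test, Tek not without BMP4 replicate 3 (0.0523) or control replicate 1 (0.0788) or 3 (0.0584). The summed signals without and with BMP4 were 397 to 413 and 387 to 539 for macrophage, 229 to 253 and 142 to 241 for endothelial, and 438 to 548 and 326 to 588 for epithelial markers. Of the measured markers, 4 macrophage, 1 endothelial and 2 epithelial ones lay above background on all 6 arrays, with Epcam at a control mean of 381. The defining markers Ptprc, Pecam1 and Krt18 were below the filter on low signals and Cdh1 was under background on every array. The part of these markers in the clock gene results was not tested.

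Of the clock genes, the D-box repressor gene Nfil3 fell most, the D-box activator gene Tef fell on 1 of its 3 probe sets, and Clock rose on 1 of its 4. The other 7 genes, which include all Period and Cryptochrome genes, had no probe set past the test. In numbers, 3 of 23 probe sets were called with limma at an adjusted p of 0.05 over all 27022 probe sets tested, 1 higher and 2 lower. Over all probe sets tested 9.12% were called, 4.2% higher and 4.91% lower, so by probe set the clock share is near the background. Each of the 3 calls was on the brightest probe set of its gene. By gene, with 1 probe set each, 3 of 10 were thus called, against 10.7% of all 12966 genes measured this way. With 10 genes this count is small, and its difference from that share was not tested. All 23 passed the filter on low signals, and 17 lay above background on all 6 arrays, at least 1 for every gene. Signals of BMP4 and control arrays did not overlap at 6 of the 23 probe sets, 3 in each direction, against 28.2% of all probe sets (15% with BMP4 above, 13.2% with BMP4 below). The median log2 change over the 23 was 0.07 and over all probe sets tested 0.03, and the median absolute change was 0.13 against 0.16.

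**Figure D1:**
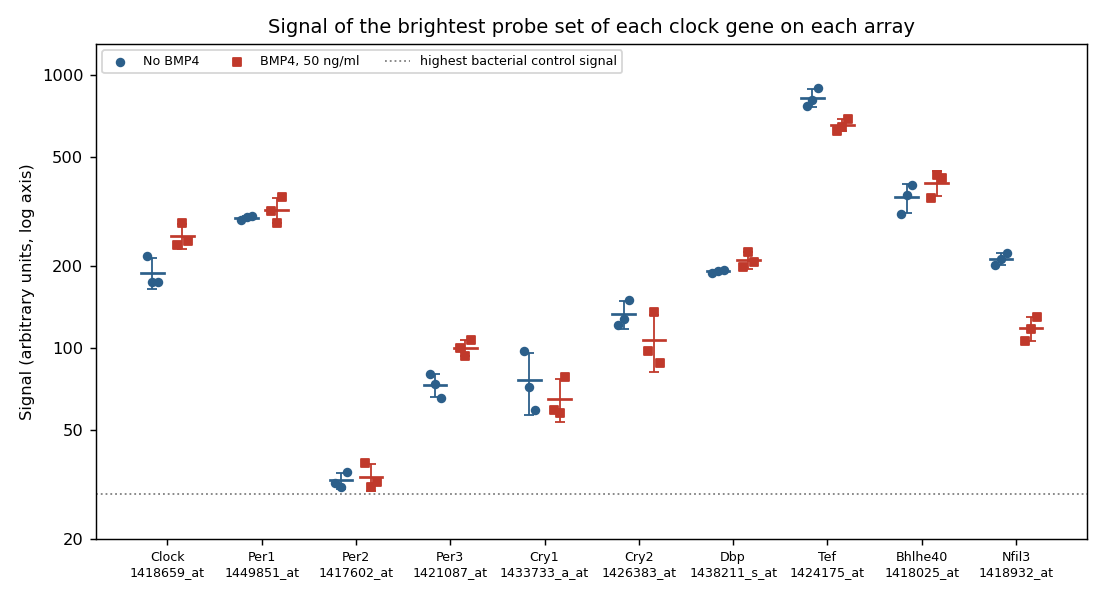
Signal of the brightest probe set of each of the 10 clock genes on each array (log axis, arbitrary units), with circles for 3 control and squares for 3 BMP4 arrays, horizontal bars for means and error bars for SD. The BMP4 arrays lie wholly below the controls for Tef and Nfil3 and wholly above for Clock, Per3 and Dbp, while Per2 lies just above the dotted line of 29.1, the highest bacterial control signal; signals of different probe sets are not comparable as levels.

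Clock encodes the activating partner of BMAL1. Its brightest probe set, 1418659_at, had signals of 217, 174 and 174 on the control arrays and 238, 288 and 247 on the BMP4 arrays. Every BMP4 array lay above every control array, with control replicate 1 closest to the BMP4 group. The change was 0.42 ± 0.11 on the log2 scale (SE; adjusted p = 0.036 in limma; 95% interval 0.18 to 0.66), a 1.34-fold rise on the log2(signal + 16) scale. A second probe set of similar brightness, 1418660_at, overlapped between groups at 172, 183 and 191 against 169, 206 and 212, and its log2 change was 0.09 (95% interval -0.14 to 0.32, limma adjusted p = 0.663). The remaining Clock probe sets gave 0.31 (interval -0.13 to 0.76) and, near background, 0.14 (interval -0.26 to 0.55). All 4 estimates were above 0, with 1418660_at at 0 with median centring, and the rise rests on 1 probe set, and the difference between probe sets was not tested. Its adjusted p was 0.126 without BMP4 replicate 2, 0.0642 without BMP4 replicate 3, 0.128 without control replicate 2 and 0.115 without control replicate 3, and the call was also lost with no filter (0.0744), median centring (0.111) or no intensity trend (0.108).

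The Period genes encode the repressors whose accumulation closes the loop, and Per1 and Per2 are also known as early targets of resetting signals. Per1 had signals of 295, 302 and 304 without and 317, 288 and 356 with BMP4 on its 1 probe set. The groups overlapped, and the log2 change was 0.08 (95% interval -0.11 to 0.28, limma adjusted p = 0.621), so a change of over 1.21-fold upward lies outside the interval. Per2 was measured near background: its brightest probe set had signals of 31.9, 31.0 and 35.1 without and 38.0, 30.8 and 32.2 with BMP4, and the other 2 were under 29.1 on 3 of 6 arrays each. The log2 changes of the 3 Per2 probe sets were 0.03, 0.26 and 0.07, with limma adjusted p-values of 0.948, 0.608 and 0.896, and the widest interval ran from -0.32 to 0.84. At these signals a moderate change of Per2 was not detectable.

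Per3 was the Period gene with the largest estimate, on 1 of its 6 probe sets. The brightest, 1421087_at, read 79.9, 73.6 and 65.5 without BMP4 and 99.6, 93.6 and 107 with it. The groups did not overlap, and the log2 change was 0.38 ± 0.13 (SE), a ratio of 1.31, but it did not pass the test (limma adjusted p = 0.101, and 0.0733 to 0.242 over the 17 alternatives). The other 5 Per3 probe sets gave log2 changes from -0.11 to 0.13, all with overlapping groups and adjusted p-values of 0.77 or more. One of these, 1458176_at, scattered widely with BMP4, at 61.4, 60.7 and 11.7.

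The Per3 promoter is shown because it carries exact D-boxes, the element on which DBP, TEF and NFIL3 act. Sequences are the 250 bases before the annotated start, from RefSeq on GRCm38.p6, written 5′ to 3′ on the gene's strand with motif matches in capitals. Promoter sequences were matched for 8 of the 10 genes, in 12 windows, while those of Per2 and Bhlhe40 were not used here. Per3 lies on the minus strand at chr4:151044666-151044915.
Per3: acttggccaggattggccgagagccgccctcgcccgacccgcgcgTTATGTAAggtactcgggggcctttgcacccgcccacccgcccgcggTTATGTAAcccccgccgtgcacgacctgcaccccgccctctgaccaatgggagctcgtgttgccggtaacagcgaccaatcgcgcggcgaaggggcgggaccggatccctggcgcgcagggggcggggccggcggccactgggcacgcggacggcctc
The capitals mark the D-box TTATGTAA, once from 205 to 198 and once from 158 to 151 bases before the start. The search took TTATGTAA, TTACATAA or TTACGTAA, which covers both strands, and no other form of the D-box. These letters stood in 0.931% of all 32851 promoter windows of that length, and in no other clock gene window. The match is a description of the letters and does not show that a factor was bound.

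The Cryptochrome genes encode the main repressors of CLOCK and BMAL1, and neither passed the test. Cry1 had signals of 97.4, 71.7 and 59.3 without and 59.3, 57.5 and 78.4 with BMP4. The groups overlapped, with the control arrays spread over most of the range, and the log2 change was -0.17 (95% interval -0.57 to 0.23, limma adjusted p = 0.625). Cry2 had 121, 128 and 150 without and 97.1, 136 and 87.8 with BMP4. BMP4 replicate 2 lay within the control range and the other two below it, and the log2 change was -0.29 (95% interval -0.63 to 0.05, limma adjusted p = 0.298). The intervals are wide and include a fall to 0.67 of control for Cry1 and 0.65 for Cry2.

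The D-box factors differed in their estimates. The exact permutation test of the differences between them, given below, cannot decide this, since with 3 against 3 arrays its p cannot go below 0.1. Nfil3 (also called E4BP4), the repressor, had signals of 201, 212 and 224 without and 106, 118 and 130 with BMP4 on its 1 probe set. The groups were far apart, since the highest BMP4 array lay well below the lowest control array. The change was -0.77 ± 0.10 on the log2 scale (SE; adjusted p = 0.000809 in limma), a fall to 0.59 of control with a 95% interval of 0.50 to 0.69. This call held under all 17 alternatives, with log2 changes from -0.87 to -0.60 and adjusted p-values up to 0.00866. No second Nfil3 probe set was there to set beside it.

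Tef encodes a PAR bZIP activator of D-box genes. Its brightest probe set, 1424175_at, had signals of 771, 809 and 898 without and 626, 647 and 692 with BMP4. All BMP4 arrays lay below all control arrays, and the change was -0.33 ± 0.08 on the log2 scale (SE; adjusted p = 0.0214 in limma; 95% interval -0.49 to -0.16), a fall to 0.80 of control. A second probe set, 1450184_s_at, also had groups that did not overlap, at 280, 259 and 248 without and 245, 236 and 231 with BMP4, but its log2 change of -0.13 did not pass (interval -0.31 to 0.04, limma adjusted p = 0.365). The third, near background, gave -0.08 (adjusted p = 0.866). The adjusted p of the brightest was 0.0655 without BMP4 replicate 1, 0.0689 without BMP4 replicate 2, 0.0611 without control replicate 2, 0.0805 without control replicate 3 and 0.113 without the intensity trend.

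Dbp encodes a D-box activator that cycles strongly in many tissues. Its 2 probe sets read 188, 192 and 193 without against 197, 225 and 206 with BMP4, and 139, 114 and 123 against 127, 141 and 146. The groups of the first were separate by a small margin, and those of the second overlapped. The log2 changes were 0.12 (95% interval -0.07 to 0.32, limma adjusted p = 0.446) and 0.13 (interval -0.12 to 0.38, adjusted p = 0.555). A fall of Dbp like that of Tef's brightest probe set lies outside both intervals. The suffix _s_at marks a probe set whose probes can match more than 1 transcript, which holds for 1 probe set each of Dbp and Tef.

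Bhlhe40, the E-box repressor, had signals of 310, 363 and 396 without and 356, 431 and 421 with BMP4. The groups overlapped, and the log2 change was 0.17 (95% interval -0.06 to 0.40, limma adjusted p = 0.363).

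**Figure D2:**
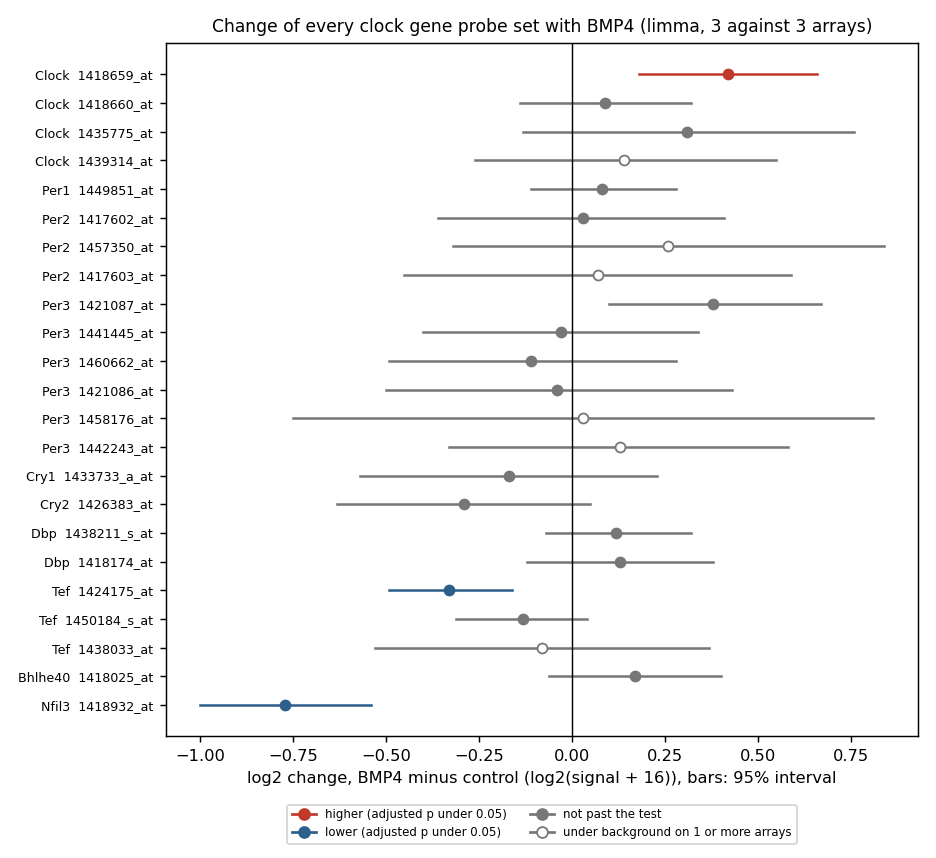
Log2 change with BMP4 for all 23 clock gene probe sets, on the log2(signal + 16) scale, with 95% intervals from limma; filled points lay above background on all 6 arrays and open points did not. Nfil3 stands at -0.77 and Tef 1424175_at at -0.33, Clock 1418659_at at 0.42, and the intervals of all other probe sets except Per3 1421087_at include 0.

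Tef is also shown with its promoters, since both annotated starts carry the E-box CACGTG, the element on which CLOCK and BMAL1 act. The windows are chr15:81802423-81802672 and chr15:81811164-81811413, both on the plus strand.
Tef, first start: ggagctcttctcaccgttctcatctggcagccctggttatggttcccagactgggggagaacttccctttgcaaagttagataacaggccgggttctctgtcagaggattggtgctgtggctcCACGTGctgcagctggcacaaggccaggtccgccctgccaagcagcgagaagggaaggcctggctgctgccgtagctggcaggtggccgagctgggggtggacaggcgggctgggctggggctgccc
Tef, second start: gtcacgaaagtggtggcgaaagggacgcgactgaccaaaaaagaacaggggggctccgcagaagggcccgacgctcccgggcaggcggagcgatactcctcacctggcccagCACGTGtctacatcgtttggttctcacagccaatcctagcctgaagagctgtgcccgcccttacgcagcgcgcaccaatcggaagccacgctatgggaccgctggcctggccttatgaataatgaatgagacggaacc
The E-boxes lie from 127 to 122 and from 138 to 133 bases before the start. An exact E-box, which reads the same on both strands, was also found once each for Cry1, from 60 to 55, and for Per1, from 166 to 161 bases before 1 of its 2 starts, against 6.02% of all windows. The related sequence CACGTT, on either strand, was found once each for Cry1 and Cry2 (3.85% of all windows), and the cAMP response element TGACGTCA in none (1.55%). None of these motifs was matched in the windows of Clock, Dbp and Nfil3, which says only that these letters are not in them. Among the genes with an exact E-box, Tef had a probe set past the test and Per1 and Cry1 did not.

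Differences within each array compare the changes of 2 members and do not depend on a factor that scales a whole array before the logarithm, apart from the 16 added. For Dbp minus Nfil3 the log2 difference was -0.09, -0.13 and -0.20 on the control arrays and 0.81, 0.85 and 0.61 on the BMP4 arrays. The difference thus shifted by 0.90, and the groups did not overlap. Most of this was the fall of Nfil3 (log2 -0.77), since Dbp changed by 0.12 and did not pass the test. The shift can be read, but not the sign of a single difference, since signals of different probe sets are not comparable as levels. For Tef minus Nfil3 the values were 1.86, 1.86 and 1.93 without and 2.40, 2.31 and 2.28 with BMP4, a shift of 0.45, with no overlap between the groups. For Dbp minus Tef they were -1.95, -1.99 and -2.13 without and -1.59, -1.46 and -1.67 with BMP4, also a shift of 0.45. Each of these had an exact two-sided permutation p of 0.1, the smallest that 3 against 3 arrays allow, and 0.14 after Benjamini-Hochberg adjustment over the 7 pairs compared. Per1 minus Per3 shifted by -0.30 (SD 0.14 in control and 0.06 in BMP4 arrays) and Per2 minus Per3 by -0.36, with no overlap and the same p-values. Both rest on Per3 1421087_at, which did not pass the test, and Per2 was near background. The other Per3 probe sets had log2 changes from -0.11 to 0.13 and were not used in these pairs. The pairs Per1 minus Per2 (0.06) and Cry1 minus Cry2 (0.12) overlapped (exact permutation p = 0.8 and 0.7), and Cry1 minus Cry2 spread with an SD of 0.44 and 0.46 within the groups. How often pairs drawn from all probe sets separate was not computed, so the 5 separate pairs have no background share beside them.

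**Figure D3:**
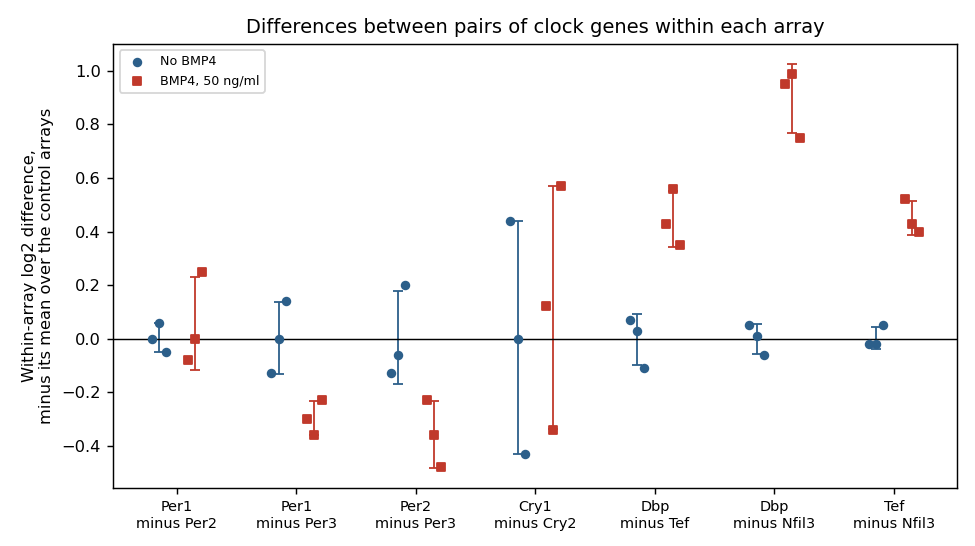
Within-array log2 difference between 2 clock genes, minus its mean over the 3 control arrays, for 7 pairs; circles are control and squares BMP4 arrays, and error bars are SD around the group mean. The groups are separate for 5 pairs, each of which holds Nfil3, Tef or Per3, and the share over pairs of all probe sets was not computed. The largest shift of the mean is Dbp minus Nfil3 at 0.90.

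Other genes of the clock pathway, from 4 lists set by general knowledge, mostly did not pass the test. Of 30 genes 25 were measured after the filter, 1 probe set each, and 3 rose and 1 fell, with a median log2 change of 0.02. Over all 12966 genes measured this way 10.7% were called, 5.03% higher and 5.66% lower, with a median of 0.03. Of 3 measured activators 0 rose and 1 fell, of 7 genes listed as repressors or partners of repressors 1 rose (Tipin) and 0 fell, of 10 kinases, ligases and proteases acting on clock proteins 2 rose and 0 fell, and of 5 output genes none passed (limma, 1 at an unadjusted p under 0.05).

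Rora, a nuclear receptor that activates Bmal1, fell from 198, 188 and 228 to 136, 151 and 130, which is -0.51 ± 0.11 on the log2 scale (SE; adjusted p = 0.0116 in limma). The groups did not overlap, and among 7 further Rora probe sets 3 were lower (log2 -0.75, -0.72 and -0.45) and none was higher. Without control replicate 3 the adjusted p of the brightest was 0.0535, which left 0 lower genes in the pathway lists. Bmal1 itself, listed as Arntl, read 158, 144 and 151 without and 121, 154 and 113 with BMP4 (log2 -0.21, adjusted p = 0.353). Its repressors Nr1d1 and Nr1d2 (REV-ERB alpha and beta), which compete with the ROR receptors for the same element, gave -0.13 (adjusted p = 0.571) and 0.00 (adjusted p = 0.997). The element, RORE, was in none of the clock gene windows and in 0.332% of all windows.

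Tipin, the partner of Timeless at replication forks and not itself a core clock repressor, rose from 260, 272 and 239 to 360, 367 and 351 (log2 0.46, limma adjusted p = 0.00328), and this call held under all 17 alternatives. Gsk3b, a kinase that phosphorylates several clock proteins, rose from 838, 903 and 958 to 1229, 1208 and 1113 (log2 0.39, adjusted p = 0.00657). Of its 4 further probe sets 2 were also higher (0.37 and 0.73). Usp2, a clock-controlled deubiquitinase, rose from 65.6, 85.1 and 87.4 to 109, 118 and 138 (log2 0.53, adjusted p = 0.0415), against 0.06 on a probe set near background. The Usp2 call was lost without BMP4 replicate 2 (0.0901) or 3 (0.136) and without control replicate 1 (0.136), 2 (0.0774) or 3 (0.0591), and with 5 other settings. The median centring of arrays ended the calls of Gsk3b (0.0521, and 0.0654 without the intensity trend) and Usp2 (0.113). Nampt, the NAD salvage enzyme and E-box target, had the smallest p of the output genes (log2 -0.27, adjusted p = 0.088), while 2 dimmer probe sets of it were lower at -0.51 (adjusted p = 0.0392) and -0.54 (adjusted p = 0.000394). The kinase gene Csnk1d, which phosphorylates Period proteins, was not called on its brightest probe set (log2 -0.09, adjusted p = 0.573). A dimmer one, 1415825_s_at, was lower, at 803, 781 and 788 without and 623, 630 and 620 with BMP4 (log2 -0.33, adjusted p = 0.00542), and its other 3 gave -0.11, -0.18 and 0.18, none past the test.

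**Figure D4:**
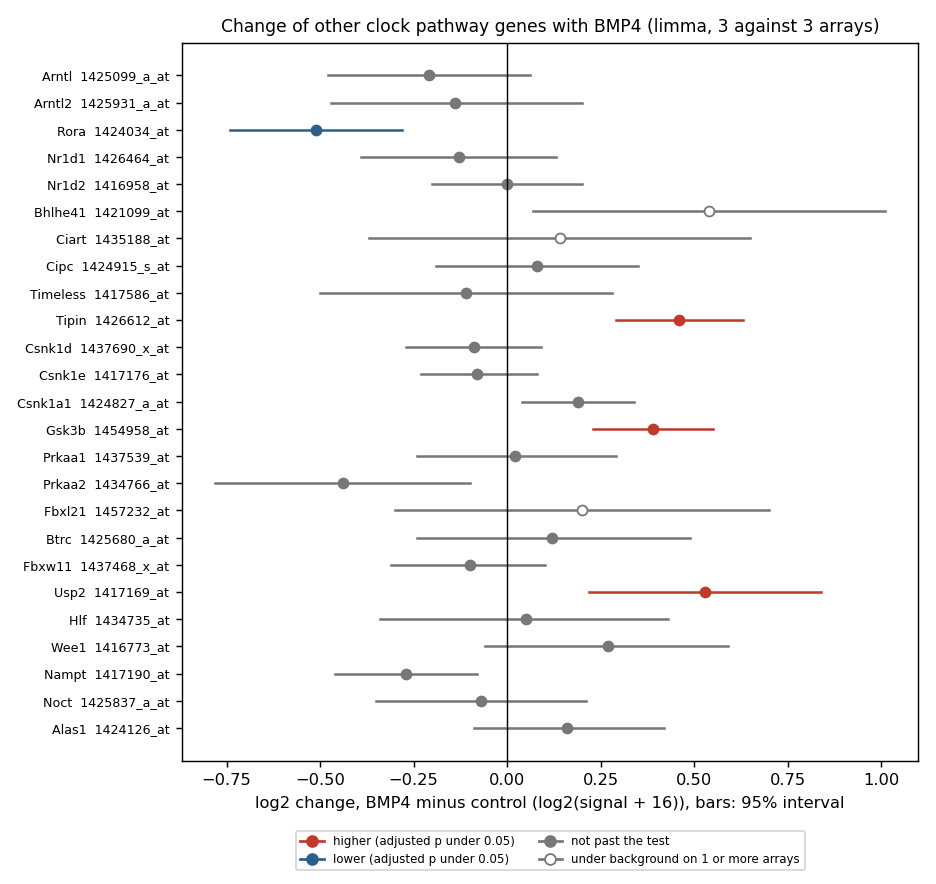
Log2 change with BMP4 for the 25 other clock pathway genes measured, 1 probe set per gene, on the log2(signal + 16) scale with 95% intervals from limma; open points were under background on at least 1 array. Rora (-0.51) is lower, Tipin (0.46), Gsk3b (0.39) and Usp2 (0.53) are higher, and the other 21 did not pass the test.

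Genes induced by serum, cAMP or glucocorticoid, the signals that reset the clock in culture, were also listed. This list was chosen with earlier results of these data known, so its counts do not test these genes as a class. Of 14 measured 0 rose (limma; among upward changes only that of Fos, 1 gene, had an unadjusted p under 0.05) and 5 fell, with a median log2 change of -0.28 against 0.03 over all genes, and the share that falls is to be read against 5.66% of all genes. The nuclear receptor gene Nr4a1 fell from 2323, 2991 and 2631 to 1463, 1579 and 1395 (log2 -0.83, limma adjusted p = 0.000261). The phosphatase gene Dusp1 fell by 0.98 (adjusted p = 0.000523). Crem, a cAMP-responsive factor, fell from 83.2, 68.6 and 74.1 to 41.4, 21.0 and 27.6, the last 2 under background. Its log2 change of -1.01 (adjusted p = 0.00711) was -1.26 with a pseudocount of 4 and -0.57 with 64, called in both, so its size is uncertain. Fkbp5, a glucocorticoid target, fell by 0.42 (adjusted p = 0.00999). Zbtb16 fell by 0.72 (adjusted p = 0.0318), but gave 0.22 on a dimmer probe set. The Zbtb16 call was lost without BMP4 replicate 2 (0.0978) or 3 (0.083) and without control replicate 1 (0.115) or 3 (0.113). It was also lost with no filter (0.0807) or no intensity trend (0.0816). Egr2 was not called on its brightest probe set (log2 -0.41, adjusted p = 0.0759), while a dimmer one was lower (log2 -0.94, adjusted p = 0.0239). Fos, by contrast, had a log2 change of 0.68 that missed the threshold (adjusted p = 0.0511). When 1 array was left out it ranged from 0.45 without control replicate 3 (adjusted p = 0.125) to 0.95 without control replicate 1 (adjusted p = 0.00145), and the latter was the 1 of these 6 fits that passed.

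The genes most like Nfil3 and Clock over the 6 arrays were named by the root mean square distance of log2 values centred on each probe set's mean. For Nfil3 they were Trio, a guanine nucleotide exchange factor (distance 0.016), Slc23a2, an ascorbate transporter (0.052), and Vwa5a (0.052). For Clock 1418659_at they were Pxylp1 (0.040), Exoc5, a subunit of the exocyst (0.046), and Mms22l, a DNA repair protein (0.050). The Exoc5 probe set had a mean of 19.4 without BMP4, under background, and 29.4 with it, so it passed the filter only through the BMP4 arrays. Trio changed by -0.75 and Pxylp1 by 0.41 on the log2 scale. The distances describe 6 arrays and carry no test.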

How the data were processed

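The authors deposited linear signal intensities of 1-colour arrays, made with GCOS 1.3 per the submitters' processing notes. How GCOS was set to scale them is not given here. After removal of 64 control probe sets, values were log2(signal + 16). Probe sets whose mean over the 6 arrays exceeded the 40th percentile (a signal of 23.5) were kept, which left 27022. Groups were compared with limma 3.58.1 in R 4.3.3 (two-sided; lmFit, eBayes, intensity trend), and p-values were adjusted by Benjamini-Hochberg over all kept probe sets, at a threshold of 0.05. Small log2 changes of dim genes are understated by the added 16. Every fold, ratio or fall to a part of control printed with a log2 change is on this scale and is not a ratio of signals. Errors are SE from limma or SD over 3 arrays. Whether replicates were separate cultures is not stated in the labels; p-values then measure the spread of these samples only, which may be technical. Bmal1 was matched as Arntl through the GRCm38.p6 gene table. For a listed gene, the brightest kept probe set with 1 symbol was used. The rule for naming took all member probe sets, up to 6 called genes per pathway list or else the smallest p, and the 3 genes nearest to the members with the largest called rise and fall; Bmal1, Nr1d1, Nr1d2, Csnk1d, Egr2, Fos and markers are named outside it, after their values were seen. Npas2 and Rorb were below the filter, and some listed genes are not reported here. Members and lists were chosen with earlier results of these data known. The model was tested on simulated data. These held only rises, each larger than the called changes of Clock and Tef, so that test does not cover changes of their size. Alternatives were other pseudocounts, filters, scalings, variance settings, a replicate block and leaving out each array.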

Additional observations from a re-analysis of the deposited data

How the results depend on the processing

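Leaving out each array gave 1622 to 1996 called probe sets over all, against 2464, and dropping the intensity trend gave 1422. Median centring gave 2522, of which 25.1% were higher against 46.1% as deposited. Clock probe sets called higher were 0 or 1 when an array was left out, and 0 with no filter, median centring, no trend or a replicate block; those called lower were 1 or 2 when an array was left out and 1 with no trend. Pathway genes called higher were 1 with median centring and 1 with no trend. Those called lower were 2 with median centring and 0 or 1 when an array was left out. Genes induced by serum, cAMP or glucocorticoid called higher were 1 with a pseudocount of 64, the filter at the 60th percentile, array weights or a replicate block, and 0 or 1 when an array was left out. When an array was left out, Per1 minus Per2 ranged from -0.04 (without BMP4 replicate 3) to 0.12, and Cry1 minus Cry2 from -0.11 (without BMP4 replicate 3; -0.10 without control replicate 3) to 0.35. The cause was not tested. Deviations of samples with equal replicate numbers correlated at 0.01, -0.003 and -0.072, so the numbers did not pair the samples. The replicate block gave 2090 calls and moved the adjusted p of Clock 1418659_at to 0.0622. The number of arrays, and for Per2 the closeness to background, limit the precision.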
